A study of Mus musculus with 8 samples.

Results

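The ionotropic glutamate receptors examined here were the AMPA receptors, whose subunits are encoded by Gria1, Gria2, Gria3 and Gria4, and the kainate receptors, encoded by Grik1, Grik2, Grik3, Grik4 and Grik5. The members were chosen by name: every row of the count table whose gene symbol was one of these 9, out of 16397 genes. All 9 passed the filter on low counts and were among the 13707 genes tested. RNA was sequenced from the hippocampus of C57Bl/6J mouse embryos at E15.5, with 4 intrauterine growth restriction (IUGR) and 4 sham samples. In the IUGR group, dams carried a micro-osmotic pump that delivered U-46619, a thromboxane A2 analog that raises maternal blood pressure, from E12.5. Sham dams underwent the same surgery at the same gestational age with a pump holding vehicle, so both groups share the surgery and the pump. IUGR samples carried the prefix T1 (T1-1, T1-3, T1-4, T1-5) and sham samples the prefix S1 (S1-4, S1-6) or S3 (S3-1, S3-4). The meaning of the prefixes was not given, nor was it stated which embryos shared a dam. The p-values therefore measure the spread between these samples, which may include littermates.

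AMPA and kainate receptors are tetrameric cation channels opened by glutamate. AMPA receptors carry most fast excitatory transmission in the brain, and their number at the synapse changes during hippocampal plasticity. Kainate receptors act on both sides of the synapse, where they tune release and excitability, and they are prominent at mossy fiber synapses, which dentate granule cells form on CA3 neurons. Within the AMPA family, the GluA2 subunit encoded by Gria2 makes channels nearly impermeable to calcium once its transcript has been edited at the Q/R site. Within the kainate family, Grik1, Grik2 and Grik3 encode subunits that can form channels alone (GluK1, GluK2 and GluK3), whereas Grik4 and Grik5 encode the high-affinity subunits GluK4 and GluK5, which need a partner from the first set.

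The coding sequence around the Q/R site is shown because this codon sets calcium permeability and lets the subunits be compared base by base. Each line gives 21 coding bases, the codon in capitals, and 21 further coding bases, 5′ to 3′ on the coding strand of the GENCODE M21 transcript with the longest coding sequence (GRCm38).
Gria1: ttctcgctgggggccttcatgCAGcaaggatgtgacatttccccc
Gria2: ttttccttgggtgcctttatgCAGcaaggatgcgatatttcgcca
Gria3: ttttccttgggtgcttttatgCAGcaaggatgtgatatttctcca
Gria4: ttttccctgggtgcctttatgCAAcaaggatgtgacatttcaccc
Grik1: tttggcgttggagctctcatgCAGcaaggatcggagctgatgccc
Grik2: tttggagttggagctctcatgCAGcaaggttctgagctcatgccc
Grik3: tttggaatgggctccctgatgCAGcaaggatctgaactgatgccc
Grik4: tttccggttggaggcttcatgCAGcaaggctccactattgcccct
Grik5: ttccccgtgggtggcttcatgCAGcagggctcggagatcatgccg
All 9 genomic codons specify glutamine, as CAG in 8 genes and CAA in Gria4. Editing, known for Gria2, Grik1 and Grik2, converts the codon to one read as arginine in the RNA. Over the 45 bases, the AMPA genes differed from each other at 3 to 9 positions, Grik1, Grik2 and Grik3 at 4 to 9, and Grik4 from Grik5 at 14. AMPA genes differed from Grik1, Grik2 and Grik3 at 16 to 18 positions. Grik4 and Grik5 differed from the AMPA genes at 14 to 17 and from Grik1, Grik2 and Grik3 at 13 to 21. The Gria2 codon lay in exon 11 of 16 at chr3:80706911-80706913 on the minus strand, the Grik1 codon in exon 13 of 18 at chr16:87940542-87940544 on the minus strand and the Grik2 codon in exon 12 of 16 at chr10:49244329-49244331 on the minus strand. Gene-level counts hold no information on which form of the codon the RNA carried.

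The 9 genes are spread over 8 chromosomes of GRCm38, with Gria4 and Grik4 both on chromosome 9. Among the AMPA genes, Gria1 lies at chr11:57011387-57330244 on the plus strand and Gria2 at chr3:80681450-80802835 on the minus strand. Gria3 is X-linked, at chrX:41400854-41678601 on the plus strand, and Gria4 lies at chr9:4417896-4796234 on the minus strand. Among the kainate genes, Grik1 lies at chr16:87895900-88290265, Grik2 at chr10:49094833-49788766, Grik4 at chr9:42518135-42944493 and Grik5 at chr7:25009849-25072346, each on the minus strand. Grik3 lies at chr4:125490700-125714173 on the plus strand. Short miRNA gene models overlap exons of Gria2, Gria3 and Gria4 on the same strand, with mean counts of 42.1, 6.38 and 5.38 of their own, against mean counts of 3082, 369 and 696 for the subunit genes. No annotated gene lies antisense to a member.

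Total counts ran from 12919546 to 16672463 in IUGR samples and from 11212632 to 15405748 in sham samples. Expression is given in CPM, counts scaled to a common total over the tested genes rather than to the totals just given. Values of single samples follow the order T1-1, T1-3, T1-4 and T1-5 for IUGR and S1-4, S1-6, S3-1 and S3-4 for sham. The 14 neuronal markers summed to 4421 CPM or more in every sample. The 12 choroid plexus markers summed to between 55.6 and 1298 CPM among IUGR samples and between 5418 and 12039 CPM among sham samples. Xist, the transcript of the inactive X chromosome, was at 948 to 1593 CPM in 3 IUGR samples and 1363 CPM in 1 sham sample (S1-6), and at 2.12 to 5.85 CPM in the other 4, and the labels give no sex. Choroid plexus levels did not overlap between the groups and cannot be told apart from the treatment. High and low Xist samples occurred in both groups, in unequal numbers, and Xist was added as a covariate in an alternative fit. In bulk tissue, fewer cells of a type and less RNA per cell cannot be told apart.

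No subunit gene met both criteria for a changed gene, an adjusted p up to 0.05 together with a 2-fold change, which 1.46% of all tested genes met (edgeR quasi-likelihood test, Benjamini-Hochberg adjustment over 13707 genes). None met the criterion on the adjusted p by itself either, against 1.55% of all genes. Of the 200 genes that met both criteria, 14 were higher in IUGR. The 4 AMPA genes had fitted log2 fold changes (IUGR against sham) between 0.23 and 0.67, and 4 of the 5 kainate genes lay between −0.17 and −0.01. The exception among kainate genes was Grik1, at 1.02. Gria1 and Grik1 had an unadjusted p under 0.05, both higher in IUGR, against 4.46% of all genes in that direction, and no member was lower at that p, against 6.62% of all genes. The median log2 fold change of the 9 genes was 0.23 and that of all tested genes −0.02, with 5 of 9 subunit genes above 0 against 44.5% of all genes. The median of the 9 genes depended on single samples, at 0.07 without S3-4, 0.12 without T1-5 and 0.37 without T1-1, and was 0.12 against the S1 and 0.46 against the S3 sham samples alone.

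**Figure D1:**
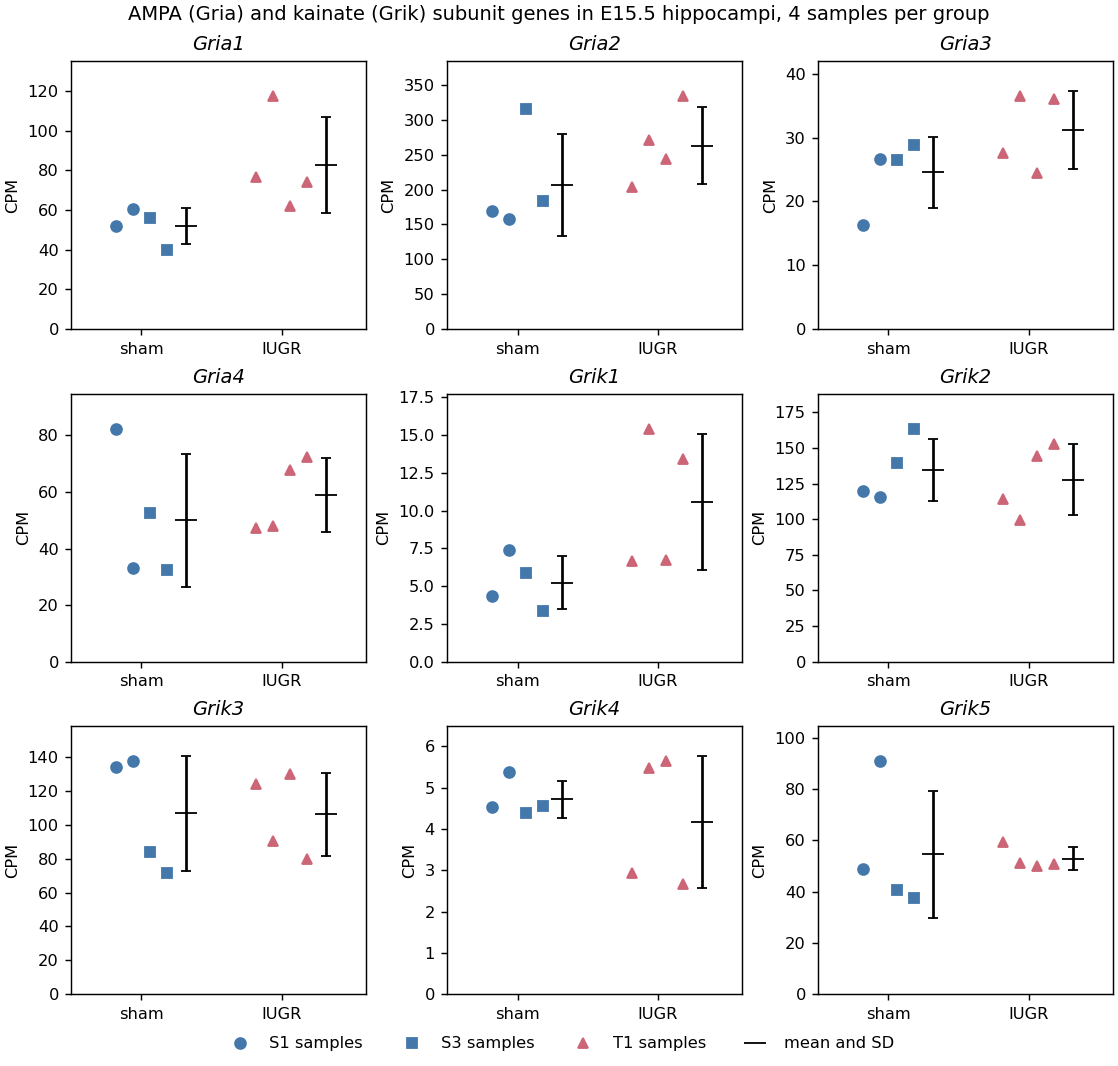
CPM (linear axis from 0) of the 9 subunit genes in each of the 4 sham samples (circles S1, squares S3) and 4 IUGR samples (triangles), with the mean and SD of each group as a bar. Gria1 is the gene whose IUGR samples, at 61.9 CPM and above, all exceed the sham samples, at 60.3 CPM and below.

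Gria1 encodes GluA1, the subunit whose delivery to synapses is a classical step of long-term potentiation. The IUGR samples had 76.6, 117, 61.9 and 74.2 CPM, and the sham samples 52.0, 60.3, 56.0 and 39.6 CPM. The groups did not overlap, although T1-4 and S1-6 were separated by less than the spread within either group. Such an arrangement, with all IUGR samples above all sham samples, was met by 2.08% of tested genes, and among the subunit genes by Gria1 alone. In either direction, groups without overlap were found for 1 of the 9 members and 7.14% of tested genes. Means were 82.5 ± 24.1 CPM (IUGR) and 52.0 ± 8.92 CPM (sham, SD, n = 4 each). The fitted log2 fold change was 0.67 with a standard error of 0.21, a fold of 1.59, an unadjusted p of 0.00955 and an adjusted p of 0.194 by edgeR. DESeq2's Wald test gave the same gene an adjusted p of 0.0493, still under 2-fold. Over 19 alternative analyses, the log2 fold change of Gria1 lay between 0.48 and 0.88. Its unadjusted p was under the threshold in 18 of them, the exception being the edgeR fit with the sham group reduced to the S1 samples.

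Gria2 encodes GluA2, the subunit that carries the edited site shown above. It had the highest CPM of the members, 203, 271, 244 and 334 among IUGR samples and 170, 158, 316 and 183 among sham samples. Sample S3-1 stood apart from the other sham samples and lay above all IUGR samples but T1-5. The means were 263 ± 54.9 and 207 ± 73.5 CPM (SD, n = 4 each), and the log2 fold change was 0.35 ± 0.23 (SE), at an unadjusted p of 0.167 and an adjusted p of 0.787 in edgeR. With S3-1 left out, the log2 fold change was 0.63, with an unadjusted p of 0.00521 and an adjusted p of 0.158 by edgeR. With T1-5 left out it was 0.21 (unadjusted p = 0.404).

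Gria3, which encodes GluA3, a frequent partner of GluA2, had 27.7, 36.5, 24.4 and 36.1 CPM in the IUGR samples and 16.4, 26.6, 26.4 and 28.9 CPM in the sham samples. T1-3 and T1-5 were above every sham sample, while T1-1 and T1-4 lay within the sham range. Its log2 fold change was 0.34 (standard error 0.21, adjusted p = 0.714, edgeR), 0.24 when the level of Xist was added to the fit and 0.21 without S1-4. Gria4, which encodes GluA4, prominent in interneurons, had 47.4, 47.9, 67.8 and 72.4 CPM in the IUGR samples. In the sham samples it had 82.5, 33.2, 52.4 and 32.3 CPM, so the sham group spanned more than the IUGR group. The log2 fold change of Gria4 was 0.23 (standard error 0.30, adjusted p = 1.00, edgeR), with a 95% interval from −0.42 to 0.89. Single samples moved it in both directions. It was 0.61 without S1-4 (unadjusted p = 0.0271), 0.37 without T1-1 and 0.36 without T1-3, and 0.12 without either T1-5 or S1-6 and 0.07 without S3-4 (unadjusted p = 0.812).

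Grik1 encodes GluK1, a subunit found mainly in interneurons in the mature hippocampus. The IUGR samples had 6.7, 15.4, 6.7 and 13.4 CPM, and the sham samples 4.3, 7.4, 5.9 and 3.4 CPM. Thus T1-3 and T1-5 stood above every sham sample, whereas T1-1 and T1-4 were within the sham range. Means were 10.6 ± 4.52 CPM (IUGR) and 5.23 ± 1.76 CPM (sham, SD, n = 4 each), at a mean count of 106 over the 8 samples. The log2 fold change was 1.02 with a standard error of 0.35 and a 95% interval from 0.23 to 1.80, a fold of 2.02, an unadjusted p of 0.0158 and an adjusted p of 0.248 by edgeR. With the level of Xist in the fit, the log2 fold change was 0.61 (unadjusted p = 0.125). The score of choroid plexus markers, their mean log2 CPM, took the values 0.72, 3.74, 0.06 and 3.75 for IUGR. Sham samples scored from 5.41 up to 6.05. The score of meningeal markers was 4.21, 7.42, 2.28 and 5.58 for IUGR and from 3.93 up to 5.22 for sham, and that of Cajal-Retzius markers 4.17, 5.37, 4.05 and 4.66 for IUGR and from 3.76 up to 5.06 for sham. Of the 12 marker lists, 6 scored higher in T1-3 and T1-5 than in T1-1 and T1-4, as Grik1 did. Besides these 3 lists they were the endothelial (5.30, 5.74, 4.95 and 5.34), microglial (3.28, 4.41, 3.21 and 3.76) and oligodendrocyte precursor lists (3.43, 4.83, 3.34 and 3.79). Radial glia markers scored lower there (8.03, 7.71, 7.74 and 7.52), the other 5 lists overlapped, and the part of any list in the Grik1 values was not tested. Leaving out T1-1 and T1-4 for their low choroid plexus markers also removed the IUGR samples lowest in Grik1, and the log2 fold change was then 1.46 (adjusted p = 0.0586).

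Grik2 and Grik3 encode GluK2 and GluK3, the more abundant channel-forming kainate subunits here. Grik2 had 114, 99.7, 145 and 153 CPM in the IUGR samples and 120, 116, 139 and 164 CPM in the sham samples. Its group means of 128 ± 25.0 and 135 ± 21.8 CPM differed by less than either SD, with a log2 fold change of −0.08 and a 95% interval from −0.45 to 0.30. Grik3 had 124, 90.7, 130 and 80.1 CPM in the IUGR samples and 134, 138, 84.2 and 71.3 CPM in the sham samples. Both groups split into a higher and a lower pair of samples for Grik3, and the group means, 106 ± 24.5 and 107 ± 34.0 CPM, were nearly equal. The log2 fold change of Grik3 was −0.01 with a 95% interval from −0.54 to 0.53 (adjusted p = 1.00, edgeR), and its sign changed with the scaling.

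Grik4 and Grik5 encode the high-affinity subunits. Grik4 was the least counted member, with a mean count of 57.6, and had 2.9, 5.5, 5.6 and 2.7 CPM in the IUGR samples and 4.5, 5.4, 4.4 and 4.6 CPM in the sham samples. T1-1 and T1-5 were below the sham range and T1-3 and T1-4 above it. Its log2 fold change was −0.17 with a 95% interval from −0.84 to 0.49. Grik5 had 59.5, 51.2, 50.1 and 50.6 CPM in the IUGR samples and 48.9, 91.0, 40.7 and 37.4 CPM in the sham samples. The IUGR samples were close together, and the sham samples spanned a 2.44-fold range, most of it due to S1-6. The log2 fold change of Grik5 was −0.04 with all samples and 0.36 without S1-6 (unadjusted p = 0.0343, edgeR). Leaving out other samples in turn gave −0.19 to 0.0031. With Xist in the fit, the log2 fold change was −0.39 for Grik4, −0.20 for Grik5, −0.06 for Grik3 and −0.05 for Grik2, and among AMPA genes 0.56 for Gria1, 0.39 for Gria2 and 0.35 for Gria4.

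**Figure D2:**
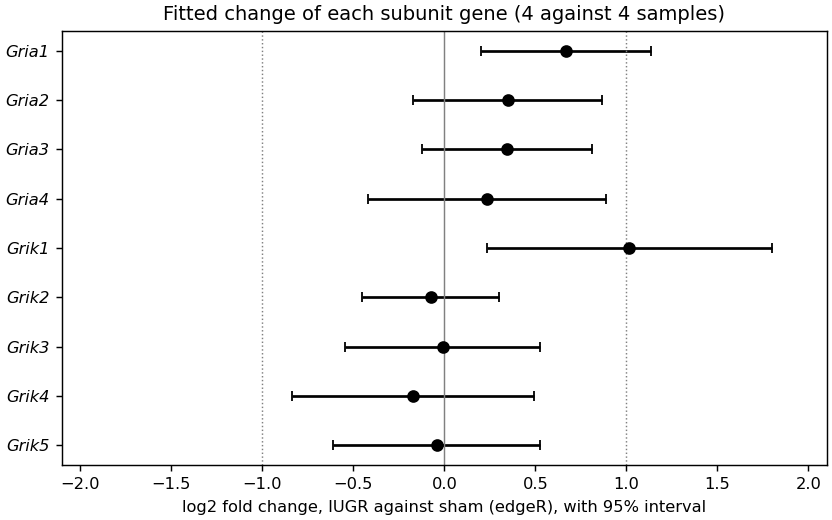
Fitted log2 fold change (IUGR against sham, edgeR, 4 against 4 samples) of each subunit gene as a point with its 95% interval as a line, and dotted lines at a 2-fold change. The intervals of Gria1 (0.20 to 1.13) and Grik1 (0.23 to 1.80) do not include 0, and those of the other 7 genes do.

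The sham samples carried different prefixes, and the fits against each prefix gave different values for several members. Values of the 2 S1 and the 2 S3 samples did not overlap for 4 of the 9 members, a share near the 35.1% of all tested genes. Grik3 averaged 136 CPM in S1 and 77.7 CPM in S3 samples, and Grik5 69.9 and 39.0 CPM, whereas Gria2 averaged 164 and 250 CPM and Grik2 118 and 151 CPM. This comparison was chosen after the values were seen, and with 2 samples a side it was not tested. Against the S1 samples alone, the log2 fold change of Grik3 was −0.36 and that of Grik5 −0.40, and against the S3 samples alone 0.48 and 0.46. For Gria2 it was 0.68 against S1 (unadjusted p = 0.0113) and 0.11 against S3 (unadjusted p = 0.687), and for Gria4 0.03 and 0.51. The score of GABAergic interneuron markers was 5.80 and 5.88 in S1, 4.75 and 4.66 in S3 and 5.22 to 6.10 in IUGR samples. Of the other 11 marker lists, 4 did not overlap between the prefixes either. Scores were 3.70 and 3.60 in S1 against 2.56 and 2.73 in S3 for oligodendrocyte precursor markers, 6.05 and 5.64 against 5.41 and 5.59 for choroid plexus, 5.33 and 5.00 against 4.73 and 4.64 for endothelium, and 5.43 and 6.11 against 6.28 and 7.04 for intermediate progenitors. The part of these lists in the values of the members was not tested.

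To compare subunits with each other, CPM were divided by the length of each gene's merged exons in kilobases. On that scale of levels, Gria2 was the highest AMPA gene, with means of 16.9 in IUGR and 13.3 in sham, followed by Gria1 (13.7 and 8.61), Gria4 (9.34 and 7.94) and Gria3 (3.16 and 2.49). In sham samples the Gria2 levels did not overlap those of Gria1, while in IUGR samples the values of Gria2 and Gria1 overlapped. Per kilobase of coding sequence they did not overlap in IUGR samples, with Gria2 at 76.7 to 126 and Gria1 at 22.7 to 43.1. Gria1 and Gria4 overlapped in both groups, and every sample's Gria4 level was above all Gria3 levels of its group. Among kainate genes, Grik3 (11.8 and 11.9), Grik5 (10.2 and 10.5) and Grik2 (9.65 and 10.2) overlapped in both groups and could not be ordered beyond their spread on this scale. Per kilobase of coding sequence, Grik5 was below Grik2 without overlap, at 17.1 to 20.3 against 36.6 to 56.1 in IUGR and 12.7 to 31.0 against 42.6 to 60.1 in sham. Grik4 was at 1.53 to 1.87 in sham on that coding scale, a wider gap from Grik2 than per kilobase of exon. Per kilobase of exon, Grik2 was 12.9-fold above Grik4 in sham (10.2 and 0.790). Grik1 was at the level of Grik4 in sham (0.779 and 0.790) and 2.24-fold above it in IUGR (1.57 and 0.700), without overlap there.

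Each gene's share of the summed level of its family described the subunit composition. Gria2 made up 39.1 ± 3.69% of the AMPA level in IUGR and 40.7 ± 8.22% in sham (SD, n = 4 each), Gria1 31.7 ± 7.32% and 27.1 ± 5.73%, Gria4 21.9 ± 4.89% and 24.2 ± 9.35%, and Gria3 7.32 ± 0.67% and 8.04 ± 2.83%. Of the kainate level, Grik3 made up 34.6 ± 5.65% in IUGR and 34.4 ± 6.44% in sham, Grik5 30.2 ± 2.92% and 29.8 ± 7.02%, and Grik2 28.4 ± 5.17% and 31.2 ± 10.2%. Grik1 and Grik4 were minor components, at 4.77 ± 2.39% and 2.27 ± 0.58% for Grik1 and 2.07 ± 0.82% and 2.35 ± 0.28% for Grik4. The ranges of the IUGR and sham groups overlapped for all 9 shares. Gria2 ranked highest among AMPA genes in 6 of 8 samples, the exceptions being T1-3, led by Gria1 (40.3%), and S1-4, led by Gria4 (38.2%). The exon length of Gria2, 15548 bases, includes long untranslated ends that need not be present in every transcript. Divided by coding length instead, Gria2 held 60.6% of the AMPA level in IUGR and 61.6% in sham and ranked highest in all 8 samples, and Gria1 held 18.7% and 15.8%. Of the kainate level by coding length, Grik2 held 43.1% and 45.8% and Grik5 16.7% and 16.4%.

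**Figure D3:**
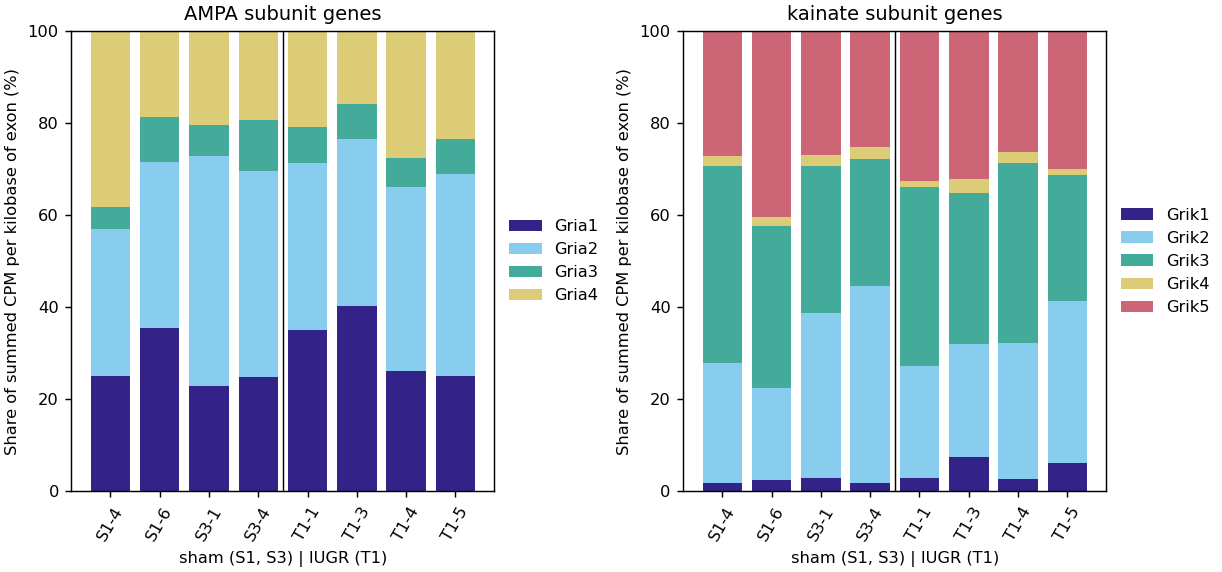
Share (%) of each gene in the summed CPM per kilobase of exon of the AMPA family (left) and the kainate family (right), one stacked bar per sample, with sham samples left of the vertical line. Gria2 takes 31.8 to 50.1% of the AMPA bar and Grik1 takes more than 6% of the kainate bar in T1-3 and T1-5.

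Summed over each family, the AMPA level was 36.1, 48.1, 39.2 and 48.9 CPM per kilobase in the IUGR samples and 34.3, 28.1, 40.6 and 26.4 in the sham samples. S3-1 was the sham sample inside the IUGR range. The kainate sum averaged 34.0 ± 2.81 in IUGR and 34.2 ± 6.91 in sham. The AMPA sum divided by the kainate sum was 1.02, 1.57, 1.06 and 1.496 in the IUGR samples and 0.983, 0.643, 1.38 and 0.917 in the sham samples. T1-3 and T1-5 lay above every sham sample and T1-1 and T1-4 among them, so the groups overlapped (means 1.28 ± 0.287 and 0.981 ± 0.305).

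**Figure D4:**
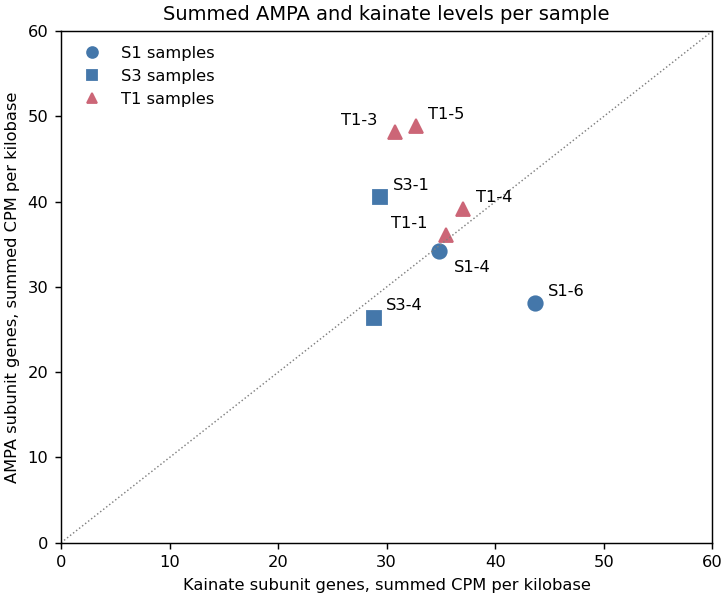
Summed level of the 4 AMPA genes (y) against that of the 5 kainate genes (x), both in CPM per kilobase of exon, one point per sample, with a dotted line of equality. T1-3 and T1-5 lie at AMPA sums of 48.1 and 48.9, above the other samples, while S1-6 has the highest kainate sum, 43.7.

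Auxiliary subunits bind AMPA receptors and set their trafficking and gating. Of 13 such genes, 9 were higher and 4 lower in IUGR in their fitted values, the median log2 fold change was 0.36, and 1 passed the criteria, where 44.5% of all tested genes were higher and 1.46% passed. That gene, Shisa8 (also known as CKAMP39), encodes a member of the CKAMP family of AMPA receptor modulators. The IUGR samples had 0.450, 0.738, 0.253 and 0.608 CPM, and the sham samples 4.62, 3.12, 2.82 and 5.28 CPM. Every IUGR sample was below every sham sample, as in 5.06% of tested genes. Shisa8 fell in IUGR, by a fitted log2 fold change of −2.90 ± 0.39 (SE, adjusted p = 0.0103, edgeR), at a mean count of 28.1. The call held in 15 of 18 alternative analyses and was lost with S1 samples alone (log2 fold change −2.87, adjusted p = 0.115), with S3 samples alone (−2.93, 0.0876) and with Xist in the fit (−2.83, 0.0725), where the fold was close to that of the full comparison. Choroid plexus markers were lower in the same samples, as given above, and their part in the Shisa8 difference was not tested. Without T1-1 and T1-4, which had the lowest choroid plexus markers, the log2 fold change of Shisa8 was −2.53 (adjusted p = 0.0291).

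The other auxiliary subunits did not pass. Cnih2, a cornichon protein that promotes surface delivery of AMPA receptors and slows their gating, had 88.03 ± 20.1 CPM (IUGR) against 53.9 ± 11.96 CPM (sham) without overlap (log2 fold change 0.71, standard error 0.20, adjusted p = 0.135, edgeR). Cacng4, a transmembrane AMPA receptor regulatory protein and the most abundant of the 13 AMPA auxiliary genes by CPM, was at 88.5 ± 37.3 and 69.1 ± 31.1 CPM (log2 fold change 0.36, adjusted p = 0.977). Of the kainate receptor auxiliary subunits, Neto2 was at 220 ± 27.0 and 172 ± 22.2 CPM (log2 fold change 0.35, unadjusted p = 0.0245, adjusted p = 0.315, edgeR) and Neto1 at 8.38 ± 4.33 and 5.36 ± 1.68 CPM (log2 fold change 0.65, adjusted p = 0.710).

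**Figure D5:**
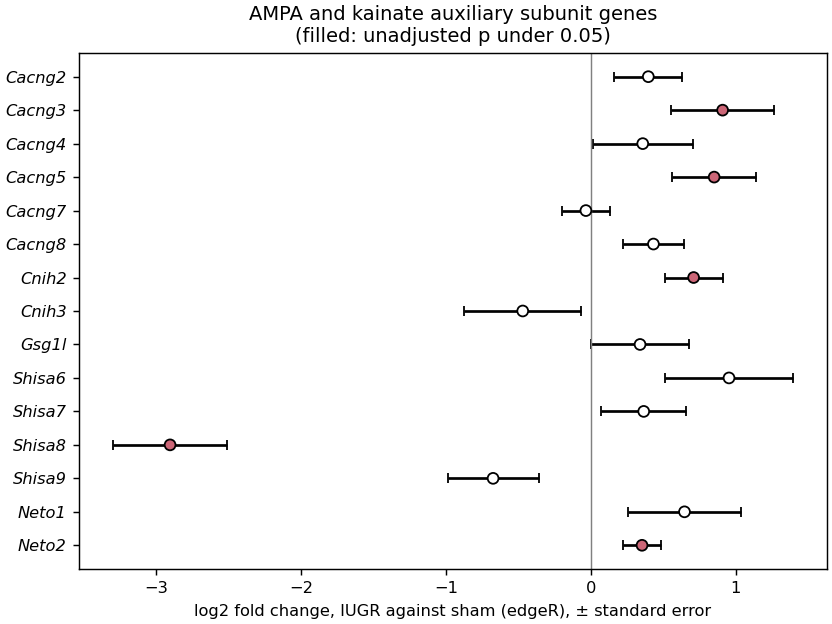
Fitted log2 fold change (IUGR against sham, edgeR) of 13 AMPA and 2 kainate auxiliary subunit genes, with the standard error as a line and filled points for an unadjusted p under 0.05. Shisa8 lies at −2.90, and Cnih2, Cacng3, Cacng5 and Neto2 are the filled points above 0.

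Genes that act on these receptors after translation or on their RNA gave no call. Of 6 genes of receptor assembly and degradation in the endoplasmic reticulum, 3 were higher and 3 lower, with a median log2 fold change of −0.03. Frrs1l, required for AMPA receptor biogenesis, had 63.9 ± 13.7 CPM (IUGR) against 49.4 ± 9.91 CPM (sham), a log2 fold change of 0.37 at an adjusted p of 0.610 in edgeR. The values for Cpt1c and Sacm1l, which act on receptor trafficking out of this compartment, were −0.10 and −0.08. Of 18 tested scaffold and trafficking genes, 13 were higher and 5 lower, with a median of 0.18 and 3 with an unadjusted p under 0.05, where 44.5% of all tested genes were higher and 11.1% had such a p. Dlg2, which encodes the postsynaptic scaffold PSD-93, had a log2 fold change of 0.75 (adjusted p = 0.103) and Syndig1, a transmembrane protein of excitatory synapses, one of 0.92 (adjusted p = 0.142). Dlg1, which encodes SAP97 and was the most abundant of this list by CPM, had one of −0.16. The editing enzyme Adarb1, which edits the Q/R site of Gria2, had 27.2 ± 3.97 CPM (IUGR) against 33.1 ± 3.23 CPM (sham), a log2 fold change of −0.29 at an adjusted p of 0.608. Of the 3 listed genes of the Adar family, Adar (0.07) and Adarb2 (0.86) also missed the threshold, and the median of the 3 was 0.07.

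Among related genes, Grid1, which encodes a delta receptor, did not pass (log2 fold change 0.48, unadjusted p = 0.0450, adjusted p = 0.427, edgeR). Of 7 genes of glutamate synthesis and transport, 5 were higher and 2 lower, with a median of 0.11. Slc17a8, which encodes the vesicular glutamate transporter VGLUT3, had a mean count of 12.4 (log2 fold change −1.84, adjusted p = 0.190), and Slc1a2, the glial glutamate transporter GLT-1, had a log2 fold change of 0.70 (adjusted p = 0.384). Slc1a3, the glial transporter GLAST and the most abundant of this list, had one of 0.14.

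Markers of the cell types in the tissue were read from the same fit. All 14 pan-neuronal markers had log2 fold changes above 0, with a median of 0.59, and 8 had an unadjusted p under 0.05, though none passed the adjusted threshold (edgeR). Of all tested genes, 44.5% were above 0 and 4.46% were higher at that p. Syt1, the calcium sensor of synaptic release, had the smallest p (log2 fold change 1.08, adjusted p = 0.0629), followed by Mapt, which encodes tau (0.70, adjusted p = 0.103). The neuronal markers summed to between 6051 and 6548 CPM in IUGR samples and between 4421 and 5336 CPM in sham samples, without overlap, and its part in the Gria1 and Grik1 values was not tested. The 8 GABAergic markers had a median of 0.18, the 8 markers of hippocampal excitatory neurons −0.09, the 5 Cajal-Retzius markers 0.37, the 10 radial glia and progenitor markers −0.13 and the 5 intermediate progenitor markers −0.26. All 10 tested choroid plexus markers were lower, with a median of −3.07, and Folr1, Cldn2 and Otx2 passed the criteria, with adjusted p of 0.0411, 0.0219 and 0.0482 (edgeR). These calls held in 10, 12 and 4 of 19 alternative analyses. Medians were 1.20 for 6 meningeal, 0.59 for 5 endothelial, 0.30 for 5 microglial, 0.78 for 4 oligodendrocyte precursor and 0.34 for 5 erythroid markers, and none of these passed.

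For each member, the gene with the most similar profile was sought among the tested genes whose mean count reached 50, as the smallest root mean square difference of mean-centred log2 CPM over the 8 samples. The closest to Gria1 was Clstn3, which encodes a synaptic adhesion protein (difference 0.09, log2 fold change 0.66). The closest were Mgst3 for Gria2 (0.08), Elmod1 for Gria3 (0.07), Naalad2 for Gria4 (0.22), Slc7a14 for Grik1 (0.16), Cbx3 for Grik2 (0.07), Rgs3 for Grik3 (0.14), Zfp513 for Grik4 (0.16) and BC068157 for Grik5 (0.10). Within the 9 members, Gria1 was nearest to Grik1 (0.34), Gria2 to Gria3 (0.34) and Grik3 to Grik5 (0.29), each further apart than the nearest gene overall. With 8 samples these are descriptions of shared profiles across the same libraries.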

How the data were processed

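Hippocampal RNA from 8 samples was sequenced by the authors as single reads from a stranded, rRNA-depleted total RNA library (TruSeq with Ribo-Zero Gold). The submitters' processing notes name Novoalign 2.8 and mm10. The counting program, annotation and strand setting are not given in the sources used here. The deposited table holds raw counts per Ensembl gene and sample, made by the authors, with 16397 genes. Gene symbols were those of the deposited table. Biotypes, exon lengths and coordinates came from GENCODE M21 (GRCm38), which matched 16124 identifiers and left 273 unmatched.

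Protein-coding genes were tested if their counts averaged 10 or more and less than 50000. Counts were scaled by TMM (normalization factors 0.978 to 1.04) and tested by edgeR 4.0.16 (quasi-likelihood, R 4.3.3) with Benjamini-Hochberg adjustment. Calls required an adjusted p up to 0.05 and a log2 fold change of 1 or more in either direction. CPM were computed from TMM-scaled library sizes, summed over the tested genes. No 2 libraries of a group agreed within sampling noise (chi-square per degree of freedom 21.3 to 61.4). On simulated data of the same 13707 genes, edgeR recovered 81 of 100 genes changed by 1.5 on the log2 scale. It recovered 95 of 100 changed by 2.5, with 4 false calls. Smaller changes, such as those fitted for the subunit genes, were not simulated. Alternatives used DESeq2 1.42.0, limma 3.58.1 (voom), other scalings and filters, all biotypes, samples left out and the level of Xist as a covariate.

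The subunit genes and all gene lists were chosen with earlier results of these data known. Genes named were the 9 members and, from each list, genes past the adjusted p threshold, the 2 with the smallest p and the one with the highest mean CPM, and the gene of most similar profile to each member. For marker lists without a call, mostly medians are given. C1ql2 was not in the table, and Ttr and Prlr were outside the count limits. The values of 1 gene of the lists are not reported here.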

Additional observations from a re-analysis of the deposited data

Results flagged for a closer look

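The 18 groups of 4 values (9 subunit genes in each treatment) were screened for a sample far from the others by Dixon's criterion, which chance meets in about 1 in 20 groups. For Gria2, sham sample S3-1 stood above the other 3, at 316 CPM, with a gap of 0.838 of the range of the sham group. For Grik5, IUGR sample T1-1 stood above the other 3, at 59.5 CPM, with a gap of 0.887 of a narrow range.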

How the results depend on the processing

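Genes called numbered 200 in the edgeR analysis, 425 with DESeq2's Wald test, 328 with limma-voom, 73 with a mean count of 50 or more, 2 with S3 sham samples alone, and 41 to 298 when 1 sample was left out, lowest without S1-4. With S1 sham samples alone edgeR called 0 (1053 at an unadjusted p under 0.05) and with Xist as a covariate 0 (966). No subunit gene was called under any alternative. Subunit genes with an unadjusted p under 0.05 numbered 2 (Gria1 and Grik1), 1 with S1 samples alone (Gria2 in their place), 1 with Xist (Gria1), and 3 with S3 samples alone (adding Grik5), without S1-6 (Grik5), without S1-4 (Gria4), without S3-1 (Gria2) and without T1-1 and T1-4 (Gria3). Subunit genes higher in IUGR numbered 5, and 5 to 8 with 1 sample left out, highest without T1-3. Signs turned for Grik2 with S1 samples alone (0.12, −0.17 to 0.0583 leaving 1 sample out), for Grik3 with DESeq2 size factors (0.0155), DESeq2 (0.0153), voom (0.0227), upper-quartile scaling (0.0107), no filter (0.0360), a mean count of 50 or more (0.0223) and S3 samples alone (0.48, −0.16 to 0.18 leaving 1 out), for Grik4 (−0.35 to 0.0015 leaving 1 out) and for Grik5 with voom (0.0559) and S3 samples alone (0.46, −0.19 to 0.36 leaving 1 out). By coding length, Gria2 held 60.6% (IUGR) and 61.6% (sham) and Grik2 43.1% and 45.8%. The cause of the turned signs and of the differing numbers of called genes was not tested. Leaving out T1-1 and T1-4 was chosen after seeing the data. The members with the fewest counts, Grik4 and Grik1, had standard errors of 0.30 and 0.35, and Gria4, with a mean count of 696, had one of 0.30. No paired analysis was possible because the sample numbers in the titles do not pair samples across groups.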
